A study of Mus musculus with 12 samples.

Results

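The interferon-inducible GTPases of the GBP and IRG families were examined as 10 genes chosen by symbol, out of 55416 gene identifiers in the deposited table. The guanylate-binding proteins (GBPs) were Gbp2, Gbp3, Gbp5, Gbp7 and Gbp9, and the immunity-related GTPases (IRGs) were Irgm1, Irgm2, Igtp, Iigp1 and Ifi47. Each symbol matched 1 Ensembl identifier, and all 10 genes passed the filter on low counts. RNA came from SIM-A9, a mouse microglial cell line of the C57BL/6 strain, either as the H14 line, labelled as lacking the kinase MOK (KO), or as wild type (WT). The 4 groups were KO cells with lipopolysaccharide (LPS, a bacterial cell wall component sensed by the receptor TLR4) for 5 h at 1 µg/mL, WT cells with the same LPS treatment, KO cells in medium alone and WT cells in medium alone. Each group had 3 libraries, labelled as biological replicates, and the labels do not say whether each came from its own culture. A p-value here therefore speaks of the spread among libraries, which may be technical. H14 was the one KO line sequenced, and an effect of the missing kinase and a property of that line cannot be told apart.

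GBPs and IRGs are large GTPases that interferons switch on in macrophages and microglia. Several GBPs collect on bacteria or on the vacuoles that hold parasites and help to expose them to inflammasome sensing, and some, such as Gbp2 and Gbp5, carry a lipid anchor. IRGs work on the same membranes in mice: the regulatory proteins Irgm1, Irgm2 and Igtp sit on host membranes and keep the effector proteins inactive there, while effectors such as Iigp1 and Ifi47 coat and disrupt the parasite vacuole. Their promoters are known for 2 kinds of element, the interferon-stimulated response element (ISRE), bound by interferon regulatory factors, and the gamma-activated site (GAS), known for the response to interferon gamma.

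Promoter sequence was available from RefSeq (GRCm38.p6) for 8 of the 10 genes, which were all but Gbp9 and Iigp1. For each, the 250 bases before the annotated start were searched, on both strands for the ISRE and the GAS. An ISRE, taken as 2 copies of GAAA with any 2 bases between them, was present in 7 of the 8 genes, against 2.98% of the 32851 mouse promoter windows of the same length. The 8 genes had 9 windows, since Gbp3 had 2 annotated starts, and a gene was counted where any of its windows matched. The second Gbp3 window held no ISRE and no GAS. A GAS written as TTCNNNGAA was present in 4 of the 8, namely Gbp5, Gbp7, Igtp and Irgm2, against 7.02% of windows. Those 4 genes held both motifs, against 0.33% of windows. The Igtp and Irgm2 stretches are near copies of each other, so they are not independent cases. The NF-kB consensus was searched only on the strand that reads toward the start, where it was found in 0 of the 8 genes and in 5.0% of windows. Matches on the other strand were not counted, and the Gbp5 window holds one there (ggaaattccc). The Ifi47 window held no ISRE and no GAS. The stretches with matches are shown because they are the upstream sequence nearest to the genes whose counts follow. All run 5′ to 3′ toward the start, and capitals mark the letters of an ISRE or GAS match, where an ISRE on the other strand reads as 2 copies of TTTC.
Gbp2 (chr3:142620543-142620662, plus strand): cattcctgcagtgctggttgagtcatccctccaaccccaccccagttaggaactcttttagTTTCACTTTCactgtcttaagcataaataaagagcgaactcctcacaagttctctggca
Gbp3 (chr3:142559924-142560043, plus strand): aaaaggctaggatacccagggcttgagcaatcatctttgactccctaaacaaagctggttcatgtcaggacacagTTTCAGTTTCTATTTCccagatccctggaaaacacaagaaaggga
Gbp5 (chr3:142496684-142496933, plus strand): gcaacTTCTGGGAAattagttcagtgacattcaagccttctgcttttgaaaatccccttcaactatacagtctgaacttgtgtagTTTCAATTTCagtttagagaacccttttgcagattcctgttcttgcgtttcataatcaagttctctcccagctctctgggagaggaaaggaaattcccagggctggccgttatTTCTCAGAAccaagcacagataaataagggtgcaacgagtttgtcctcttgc
Gbp7 (chr3:142530216-142530335, plus strand): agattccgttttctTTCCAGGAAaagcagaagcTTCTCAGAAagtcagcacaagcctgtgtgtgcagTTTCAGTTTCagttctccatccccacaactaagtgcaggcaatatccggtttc
Igtp (chr11:58199436-58199555, plus strand): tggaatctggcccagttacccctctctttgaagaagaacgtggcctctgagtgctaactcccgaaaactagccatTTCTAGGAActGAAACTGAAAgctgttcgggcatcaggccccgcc
Irgm1 (chr11:48871421-48871540, minus strand): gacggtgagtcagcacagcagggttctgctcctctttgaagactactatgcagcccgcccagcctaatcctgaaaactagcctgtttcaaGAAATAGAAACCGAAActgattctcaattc
Irgm2 (chr11:58214857-58214976, plus strand): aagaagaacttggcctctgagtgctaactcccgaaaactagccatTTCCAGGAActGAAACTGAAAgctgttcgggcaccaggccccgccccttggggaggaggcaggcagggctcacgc

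In Igtp and Irgm2 the GAS and the ISRE were 2 bases apart. In Gbp7 the 2 GAS matches lay 25 and 44 bases from the ISRE, and in Gbp5 the nearest pair was 71 bases apart. Gbp3 and Irgm1 each held 2 overlapping ISRE matches, which makes 1 longer run of the repeat. Of the relatives with an entry, 5 of 9 held an ISRE and 4 of 9 a GAS. In Tgtp1, Tgtp2 and Gm12185 the 2 motifs were also 2 bases apart. The windows of Tgtp2 and Gm12185 are near copies, and that of Tgtp1 resembles them around the motifs. These genes are therefore not independent cases either. A match is a description of letters, not a bound site.

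The libraries held 39.7 to 72.9 M counts each. Values are CPM, counts per 1 M counts of the library after TMM scaling, and fold changes are log2 values ± SE from edgeR's quasi-likelihood test on all 12 libraries, with p-values adjusted by the Benjamini-Hochberg method over 26420 genes and called under 0.05. Mok, the targeted gene, had 78, 84 and 56 counts in KO LPS libraries, against 164, 87 and 158 in WT LPS libraries, and 115, 117 and 95 in KO medium libraries, against 158, 163 and 206 in WT medium libraries. Its log2 fold change, KO over WT, was -0.72 ± 0.19 under LPS (edgeR adjusted p = 0.0177, above 0.05 without KO LPS replicate 3, WT LPS replicate 1 or WT LPS replicate 3 at 0.0753, 0.0785 and 0.0515) and -0.58 ± 0.19 in medium (0.0501). A count over the whole gene cannot show a small edit. All 12 microglia and macrophage markers were detected, with summed levels of 1090 to 1520 CPM in KO LPS, 1510 to 1760 in WT LPS, 803 to 1160 in KO medium and 1160 to 1360 in WT medium libraries. Of these, Itgam (-3.04), Adgre1 (-0.87) and Csf1r (-0.55) were lower in KO than in WT cells under LPS and 0 were higher. In that comparison 12.7% of all genes were lower and 7.87% higher. Summed markers of T and NK cells were at 13.2 to 22.1 CPM in KO LPS, 8.9 to 10.4 in WT LPS, 1.36 to 5.64 in KO medium and 2.1 to 10.4 in WT medium libraries. Those of oligodendrocytes were at 10.8 to 13.9, 6.35 to 6.46, 20.4 to 22.2 and 9.05 to 11.3 CPM in the same order, and those of neurons, astrocytes and fibroblasts were at most 7.21 CPM in any library. No marker was at 0 over a whole group, and the part of these markers in the results was not tested. KO LPS replicate 2 stood apart: 10.38% of its counts were in identifiers without a symbol, against 4.88% to 8.18% elsewhere. WT medium replicate 2 stood apart too, with 13.05% of its counts in processed pseudogenes, against 8.89% and 6.58% in the other WT medium libraries. Values of the 10 genes under LPS are also given without the first of these libraries, and without the second where a call changed.

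LPS raised every one of the 10 GTPase genes in WT cells and 9 of them in KO cells, but under LPS all 10 stood lower in KO than in WT cells. Of all genes tested, 12.7% were lower in KO under LPS and 7.87% were higher, which is 3351 lower and 2080 higher genes (2936 lower and 2922 higher with scaling by library size alone, where all 10 stayed lower). The KO and WT libraries did not overlap for any of the 10 genes, which held for 19.6% of all genes in that direction and for 19.3% in the other. The median log2 fold change of the 10 genes was -2.24, against 0.07 over all genes tested. In these bulk cultures, fewer cells of a responding type and less RNA per cell cannot be told apart.

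**Figure D1:**
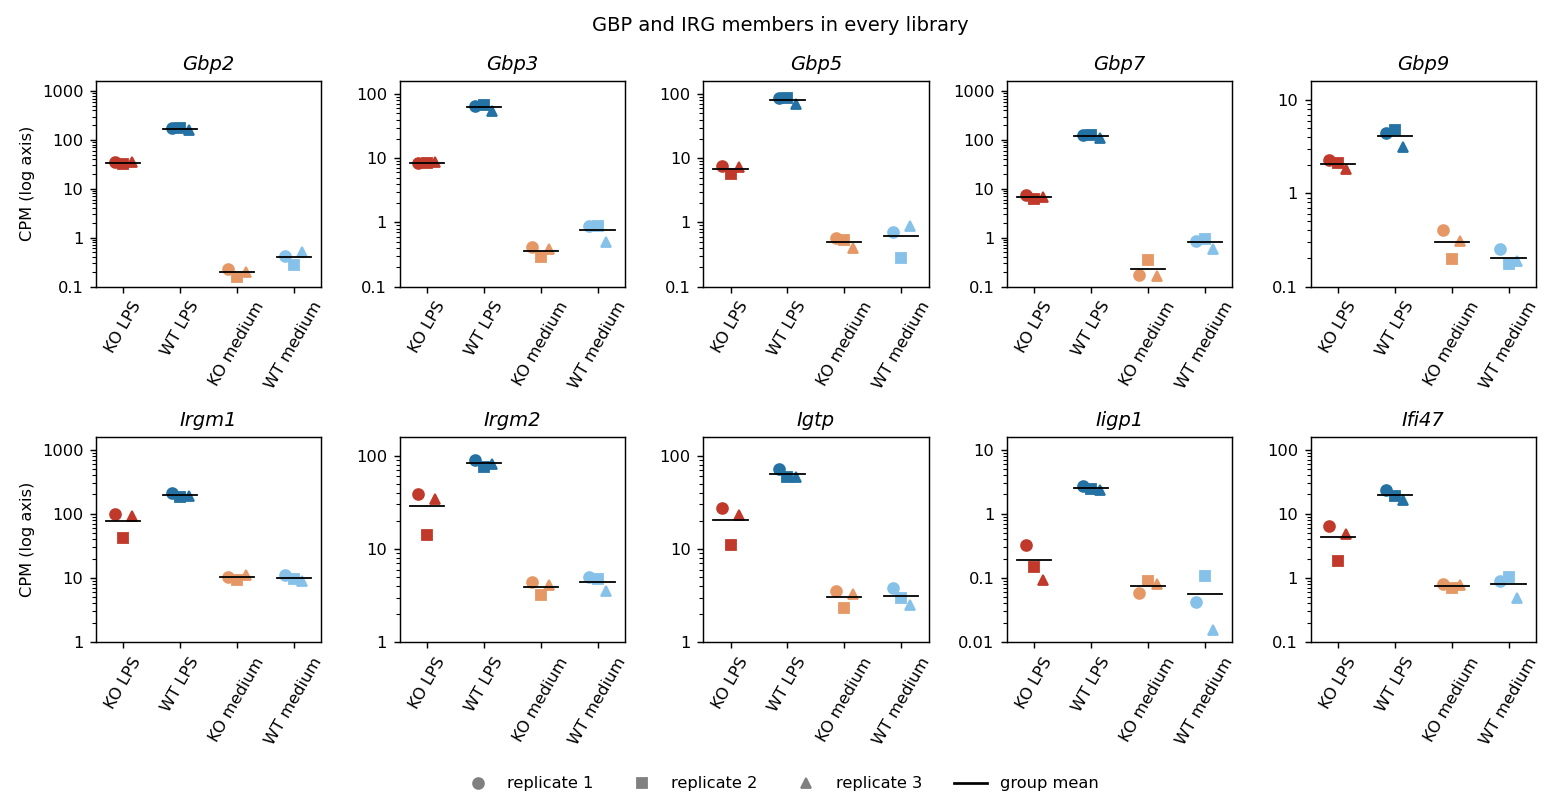
CPM (log axis, a separate scale for each gene) of the 10 GTPase genes in all 12 libraries, with KO and WT cells under LPS and in medium from left to right. Symbols give the replicate and bars the mean of 3 libraries. In every panel the 3 KO LPS libraries sit below the 3 WT LPS libraries, and for the IRG genes Irgm1, Irgm2, Igtp and Ifi47 KO LPS replicate 2 is the lowest of its group. That library is also the lowest, by a smaller margin, for Gbp2, Gbp5 and Gbp7.

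Among the GBPs, Gbp7, which in mouse macrophages helps to assemble the phagocyte oxidase on vacuoles, showed the widest gap. It was at 7.32, 6.07 and 6.64 CPM in KO LPS libraries, against 124, 128 and 108 CPM in WT LPS libraries. In medium it was at 0.18, 0.35 and 0.16 CPM in KO cells, against 0.84, 0.95 and 0.59 CPM in WT cells. The KO libraries lay below the WT libraries in both conditions, and under LPS KO cells held 5.58% of the WT level (-4.16 ± 0.19, edgeR adjusted p = 8.77e-08). Gbp5, which promotes assembly of the NLRP3 inflammasome, was at 7.69, 5.66 and 7.28 CPM in KO LPS libraries, against 87.9, 87.1 and 69.4 CPM in WT LPS libraries. Gbp3, which lies in the same gene cluster on chromosome 3, was at 8.37, 8.42 and 8.81 CPM in KO LPS libraries, against 66.4, 68.2 and 55.2 CPM in WT LPS libraries. KO cells thus held 8.44% of the WT level of Gbp5 (-3.57 ± 0.27, edgeR adjusted p = 4.29e-06) and 13.5% of that of Gbp3 (-2.89 ± 0.18, 5.98e-07).

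Gbp2, which is recruited to pathogen vacuoles and favours their lysis, had the highest mean of the 10 per kilobase of exon under LPS in both lines. In KO LPS cells its range overlapped that of Irgm1. By CPM alone Irgm1 was higher, at 77.6 against 34.2 in KO LPS cells and 194 against 169 in WT LPS cells. Gbp2 was at 35.7, 32.2 and 34.8 CPM in KO LPS libraries, against 179, 173 and 156 CPM in WT LPS libraries. KO cells held 20.2% of the WT level (-2.31 ± 0.12, edgeR adjusted p = 2.05e-07). Gbp9 differed least, at 2.26, 2.13 and 1.84 CPM in KO LPS libraries, against 4.42, 4.81 and 3.12 CPM in WT LPS libraries (-0.98 ± 0.25, edgeR adjusted p = 0.0157). That call did not hold without KO LPS replicate 3, WT LPS replicate 1 or WT LPS replicate 2 (edgeR adjusted p = 0.0683, 0.0579 and 0.0606). Gbp9 also shared 18.3% of its 31-base words with other genes, chiefly Gbp8 and Gbp6, so its counts are the least certain of the GBPs. Gbp7 shared 14.7%, most of it with the processed pseudogene Gm43802 that overlaps it on the same strand.

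The regulatory IRGs had smaller log2 differences than Gbp2, Gbp3, Gbp5 and Gbp7, although genes were not tested against each other. Irgm1, needed for control of IRG effectors and for autophagy of mitochondria in mice, was at 100.1, 41.6 and 91.2 CPM in KO LPS libraries, against 209, 181 and 193 CPM in WT LPS libraries (-1.32 ± 0.25, edgeR adjusted p = 0.00351). Irgm2 was at 39.0, 13.9 and 34.2 CPM in KO LPS libraries, against 90.8, 76.3 and 80.5 CPM in WT LPS libraries (-1.51 ± 0.31, 0.00543). Igtp, also called Irgm3, was at 27.2, 10.97 and 23.1 CPM in KO LPS libraries, against 71.7, 59.5 and 59.0 CPM in WT LPS libraries (-1.64 ± 0.29, 0.00224). For all 3 genes replicate 2 was the low library of the KO group, and KO cells held 39.9%, 35.1% and 32.2% of the WT levels. Igtp and Irgm2 overlap on the same strand over 162 exon bases, and 15.9% of the 31-base words of Igtp also occur in Irgm2, so counts of the pair are not fully separate.

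The effector IRGs were much less abundant. Ifi47 was at 6.56, 1.84 and 4.88 CPM in KO LPS libraries, against 23.7, 19.1 and 16.7 CPM in WT LPS libraries (-2.16 ± 0.39, edgeR adjusted p = 0.00222). Iigp1, the vacuole-coating GTPase best studied in Toxoplasma infection, had 15, 8 and 4 counts in KO LPS libraries, against 159, 97 and 146 in WT LPS libraries (-3.70 ± 0.42, edgeR adjusted p = 6.48e-05). KO cells held 7.68% of the WT level, a share between those of Gbp5 and Gbp7. In medium Iigp1 had 3, 4 and 4 counts in KO cells, against 2, 5 and 1 in WT cells, so no line difference was detectable there at this depth (0.53 with a 95% interval of -0.95 to 2.01).

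In medium alone a line difference was called for 3 GBPs and for none of the 5 IRGs, and whether the families differed was not tested. Gbp2, Gbp3 and Gbp7 were lower in KO cells, which makes 3 of the 10 genes, while 12.3% of all genes were lower and 6.88% higher. Gbp2 was at 0.23, 0.15 and 0.20 CPM in KO medium libraries, against 0.42, 0.28 and 0.50 CPM in WT medium libraries (-1.03 ± 0.22, edgeR adjusted p = 0.00761). Gbp3 was at 0.41, 0.29 and 0.39 CPM in KO medium libraries, against 0.86, 0.89 and 0.50 CPM in WT medium libraries (-1.03 ± 0.22, 0.00778). The Gbp7 difference, with the libraries given above, was -1.78 ± 0.27 (0.000775). The libraries of the 2 lines did not overlap for these 3 genes, which held for 19.6% of all genes in that direction and 16% in the other, but all values lay under 1 CPM. With the fit restricted to the 2 groups in medium only Gbp7 was called, and the Gbp2 call was also lost without WT medium replicate 3 (edgeR adjusted p = 0.123) or with the library's share of processed pseudogene counts as a covariate (0.249). That share was 12.8% to 14.3% in KO medium libraries and 6.58% to 13.1% in WT medium libraries.

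The intervals show which line differences these libraries leave possible for the genes not called in medium. Irgm1 was at 10.4, 9.30 and 11.1 CPM in KO medium libraries, against 11.2, 9.69 and 9.02 CPM in WT medium libraries, with a 95% interval of the log2 difference of -0.53 to 0.62. The intervals were -0.90 to 0.53 for Irgm2, -0.71 to 0.65 for Igtp and -1.01 to 0.87 for Ifi47. Gbp5 was at 0.56, 0.53 and 0.41 CPM in KO medium libraries, against 0.72, 0.28 and 0.87 CPM in WT medium libraries (-0.35 ± 0.33, edgeR adjusted p = 0.465), and without WT medium replicate 2, its low WT library, the difference was called (-0.71, 0.0295). Gbp9 was the one GBP with a positive value in medium (0.58, 95% interval -0.12 to 1.28).

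LPS itself raised the genes by very different amounts. In KO cells 9 of the 10 rose, where 25.3% of all genes were higher and 26.8% lower, and in WT cells all 10 rose, where 16.3% of all genes were higher and 16.3% lower. With scaling by library size alone 4182 genes were higher and 10422 lower in KO cells, and 2104 higher and 9985 lower in WT cells. The LPS libraries lay above the medium libraries for all 10 genes in both lines, which held for 28.8% of all genes in KO cells and 24% in WT cells, with 32.6% and 19% in the other direction. Gbp2 rose 170.5-fold in KO cells (7.41 ± 0.18) and 413-fold in WT cells (8.69 ± 0.17). Gbp7 rose 29.1-fold in KO cells and 152-fold in WT cells, Gbp3 rose 23.4-fold in KO cells and 85.2-fold in WT cells, and Gbp5 rose 13.7-fold in KO cells and 128-fold in WT cells. The regulatory IRGs and Ifi47 rose 5.81-fold to 7.55-fold in KO cells and 18.6-fold to 24.9-fold in WT cells, with Gbp9 in the same range at 6.75-fold and 19.97-fold. Iigp1 was 2.46-fold higher in KO cells, a value that did not pass the test (1.30 ± 0.56, edgeR adjusted p = 0.0698, 0.0378 without KO LPS replicate 3 and 0.0463 without WT medium replicate 2), and 46.1-fold higher in WT cells. The share of counts in processed pseudogenes moved with LPS, at 6.64% to 7.35% in KO LPS and 12.8% to 14.3% in KO medium libraries, and at 6.27% to 7.05% in WT LPS and 6.58% to 13.1% in WT medium libraries. The share did not overlap between KO LPS and KO medium libraries, so a fit with it as a covariate cannot cleanly separate it from LPS there. In that fit all 10 genes passed the test in KO cells, Iigp1 included (log2 3.70, edgeR adjusted p = 0.0352). The rise in KO cells was then 6.16-fold for Gbp5, 13.6-fold for Ifi47, 35.7-fold for Gbp3, 44.4-fold for Gbp7 and 11.3-fold for Irgm2, and in WT cells it was 121-fold for Iigp1 and 39.0-fold for Ifi47. For each of the 10 genes the value was the smaller one in KO cells, with the covariate too, and the 2 effects share no libraries.

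**Figure D2:**
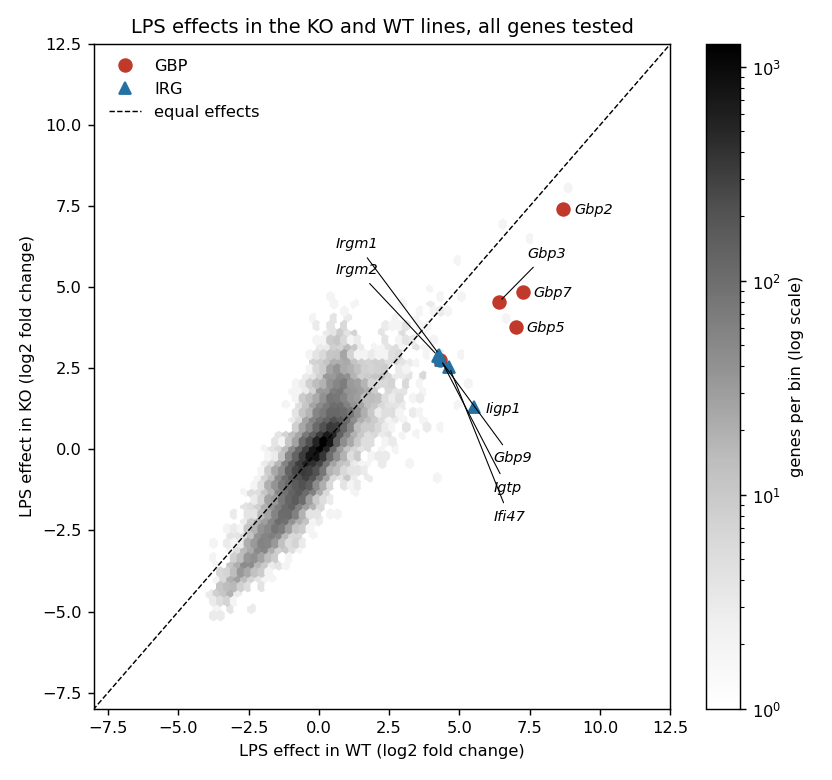
Log2 fold change of LPS over medium in KO cells (vertical axis) against that in WT cells (horizontal axis) for all 26420 genes tested, as grey bins whose shade gives the number of genes on a log scale. The 5 GBP genes (circles) and 5 IRG genes (triangles) all lie below the line of equal effects, with Gbp2 at 7.41 in KO and 8.69 in WT cells and Iigp1 at 1.298 in KO and 5.53 in WT cells.

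Whether the LPS effect itself differed between the lines was tested as an interaction, the log2 LPS effect in KO cells minus that in WT cells. It was called for 5 of the 10 genes, all negative, where 0.908% of all genes were called negative and 0.693% positive. The 4 GBPs among them were Gbp5 (-3.22 ± 0.42, edgeR adjusted p = 0.00428), Gbp7 (-2.38 ± 0.35, 0.00717), Gbp3 (-1.86 ± 0.28, 0.00832) and Gbp2 (-1.28 ± 0.26, 0.0368), and the one IRG was Iigp1 (-4.23 ± 0.82, 0.0281). The other 5 had values of -1.33 to -2.10 with edgeR adjusted p from 0.0991 to 0.218, so a difference was not shown for them. The count was 3 without KO LPS replicate 3, any 1 of the 3 WT LPS libraries, KO medium replicate 1 or 3 or WT medium replicate 1, 4 without KO LPS replicate 1 or KO medium replicate 2, and 8 without KO LPS replicate 2 or WT medium replicate 2. The Gbp2 and Iigp1 calls were the ones lost, at edgeR adjusted p of 0.0539 to 0.212, while Gbp3, Gbp5 and Gbp7 were called in each of the 22 alternatives.

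**Figure D3:**
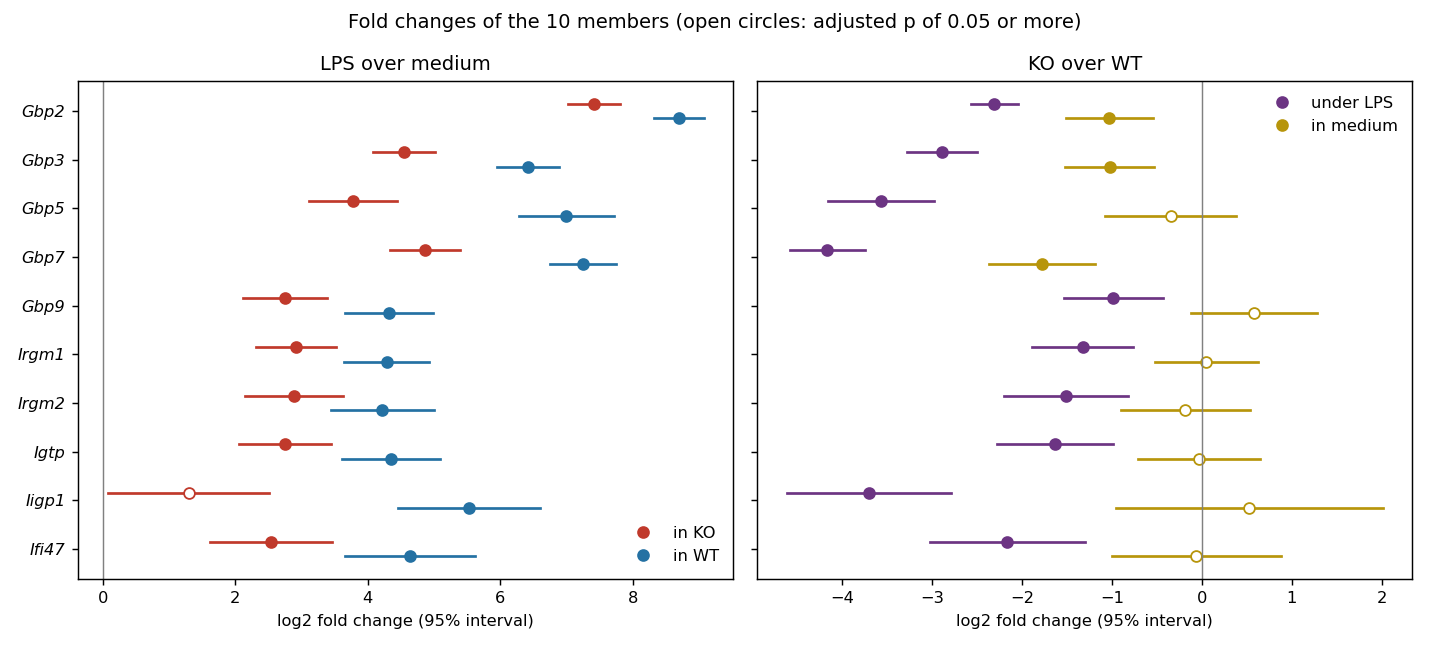
Log2 fold changes of the 10 GTPase genes with 95% intervals, for LPS over medium in KO and WT cells (left) and for KO over WT cells under LPS and in medium (right). Filled circles passed the test. Under LPS every KO over WT value lies below 0, from -4.16 for Gbp7 to -0.98 for Gbp9, while in medium the IRG intervals span 0.

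Within the KO LPS group replicate 2 was low for 4 of the 5 IRGs and close to the other libraries for Gbp2 and Gbp3; whether the families differ in this was not tested. As a share of the WT LPS mean, Irgm1 was at 51.5%, 21.4% and 46.9% in KO LPS replicates 1, 2 and 3, and Ifi47 was at 33.1%, 9.28% and 24.6%. Gbp2 was at 21.1%, 19.0% and 20.6% and Gbp3 at 13.2%, 13.3% and 13.9%. Replicate 2 was the lowest library for the IRGs other than Iigp1, which was lowest in replicate 3, and by a smaller margin for Gbp2, Gbp5 and Gbp7. The IRGs in replicate 2 were at 0.32 to 0.70 of the mean of the other 2 libraries (median 0.435), while the GBPs were at 0.76 to 1.04 of it (median 0.913). The coefficient of variation over the 3 libraries was 40.6% to 64.2% for the IRGs and 2.8% to 15.6% for the GBPs. Among relatives outside the 10 genes, some GBPs and an Mx gene were low as well: replicate 2 was at 0.46 of the mean of the other 2 libraries for Gbp10, 0.392 for Gbp11, 0.662 for Gbp2b and 0.454 for Mx2. Replicate 2 was also low for Ifnb1, the interferon beta gene, at 41.7%, 15.5% and 37.9% of the WT LPS mean in replicates 1, 2 and 3, and for the transcription factor Irf1, at 103.5%, 34.1% and 96.7%. Their part in the IRG values was not tested.

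Without that library all 10 genes stayed lower in KO than in WT cells under LPS. The differences of 4 IRGs became smaller with a lower adjusted p, at -1.03 for Irgm1 (edgeR adjusted p = 0.000103), -1.18 for Irgm2 (0.000682), -1.34 for Igtp (0.00103) and -1.79 for Ifi47 (0.00116). That of Iigp1 was -3.54 with a higher adjusted p (0.000628, against 6.48e-05 with all libraries). The GBP values moved little, to between -1.01 for Gbp9 and -4.10 for Gbp7. The interaction of Irgm1, Igtp and Ifi47 was then also called (-1.07, -1.303 and -1.73, edgeR adjusted p = 0.00549, 0.0401 and 0.0481), and that of Irgm2 missed the threshold (-0.99, 0.0574). The same 3 genes were also called without WT medium replicate 2 (edgeR adjusted p = 0.0466 for Irgm1, 0.0450 for Igtp and 0.0313 for Ifi47) and with DESeq2 on all libraries (0.0155, 0.0112 and 0.0109).

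**Figure D4:**
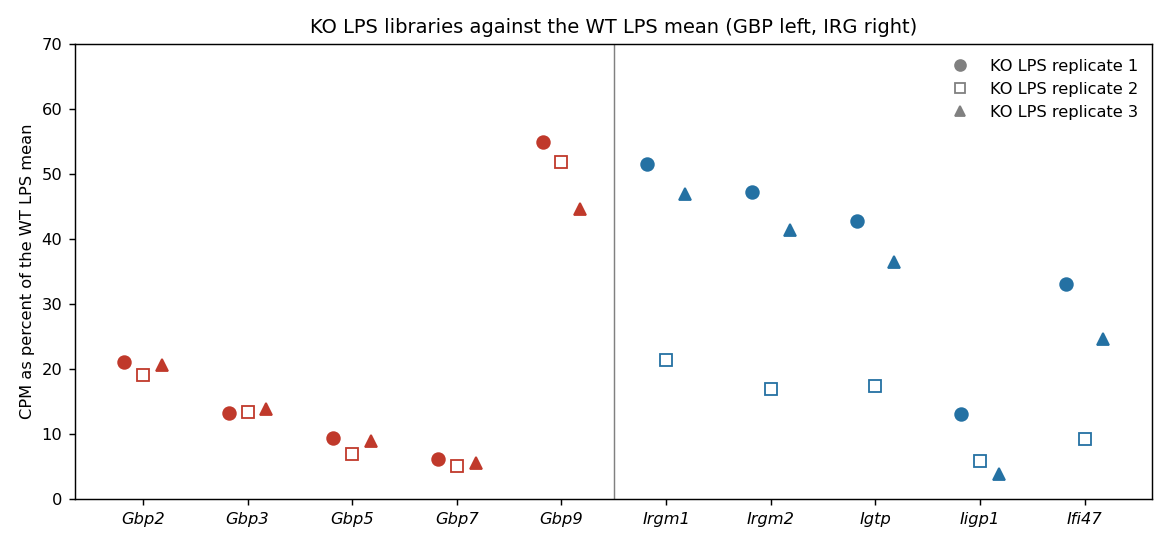
CPM of each GTPase gene in the 3 KO LPS libraries as a percent of the WT LPS mean, with GBP genes left and IRG genes right of the line. Replicate 2 (open squares) lies close to the other 2 libraries for Gbp2 and Gbp3, the latter at 13.2%, 13.3% and 13.9%. It is the lowest for Gbp7 and for Gbp5, the latter at 9.44%, 6.95% and 8.93% in replicates 1, 2 and 3. For Irgm1, Irgm2, Igtp and Ifi47 it lies well below the others.

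Per kilobase of exon, the make-up of the set differed between the lines. GBPs gave 36.2% of the summed level of the 10 genes in KO LPS cells, against 55.9% in WT LPS cells, and 7.26% in KO medium cells, against 12.2% in WT medium cells. The summed GBP level was 18.8 CPM per kilobase in KO LPS cells, against 121 in WT LPS cells, and the summed IRG level was 33.1 in KO LPS cells, against 95.6 in WT LPS cells. Without KO LPS replicate 2 the GBP share in KO LPS cells was 32.0%, with sums of 19.4 for the GBPs and 41.2 for the IRGs, and Irgm1 came before Gbp2. Gbp2 led the order under LPS, at 13.6 ± 0.72 CPM per kilobase in KO cells and 67.3 ± 4.6 in WT cells (SD, n = 3 each). In KO cells its range overlapped that of Irgm1, the next gene, at 13.4 ± 5.4, whereas in WT cells it lay above Irgm1, at 33.4 ± 2.4. Gbp7 had rank 7 in KO LPS cells, at 1.19 ± 0.11, and rank 5 in WT LPS cells, at 21.3 ± 1.9, where its range overlapped those of Irgm2 above it and Gbp3 below it. In medium Irgm1, Igtp and Irgm2 led in both lines, at 1.77, 1.5 and 1.06 CPM per kilobase in KO cells and 1.71, 1.54 and 1.20 in WT cells, with overlapping ranges, and Iigp1 was last in all 4 groups.

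Other GTPases of the same families and the related Mx proteins formed a list of 23 genes, of which 21 were found and 20 tested. Under LPS 14 of the 20 were lower in KO than in WT cells and 0 were higher, with a median log2 fold change of -1.80, and in medium 1 was lower and 1 higher (median 0.36, against 0.04 over all genes tested). Over all genes 12.7% were lower and 7.87% higher under LPS, and 12.3% lower and 6.88% higher in medium. With LPS 11 rose and 3 fell in KO cells, and 17 rose and 0 fell in WT cells. Among all genes tested 25.3% rose and 26.8% fell in KO cells, and 16.3% rose and 16.3% fell in WT cells. Several of these genes share most of their sequence with a copy, so single values are uncertain where that is stated. Examples are 9930111J21Rik1 and 9930111J21Rik2, with 88.9% and 70.6% of their 31-base words in other genes. The counts and medians of the list may thus hold the same signal more than once. The count of 14 ranged from 11 to 16 over the alternatives, and the count of 11 was 6 with the pseudogene share as a covariate.

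Gvin1, a very large interferon-inducible GTPase, was at 0.52, 0.42 and 0.33 CPM in KO LPS libraries, against 268, 174 and 112 CPM in WT LPS libraries (-8.75 ± 0.59, edgeR adjusted p = 3.46e-06). In medium it was at 0.25, 0.27 and 0.14 CPM in KO cells, against 12.45, 6.92 and 3.57 CPM in WT cells (-5.10 ± 0.59, 0.000189). KO libraries lay far below WT libraries in both conditions, and its LPS effect in KO cells was not called (0.95 ± 0.75, 0.311). Of its 31-base words, 99.7% occur in other genes and 99.0% in Gm4070, chosen after its values were seen, whose counts in the KO LPS libraries were 30, 30 and 21, beside 24, 23 and 14 for Gvin1. The 2 loci cannot be told apart in these counts. Mx1, a dynamin-like GTPase gene, was at 0.62 CPM in KO LPS cells, against 13.4 CPM in WT LPS cells (-4.43 ± 0.25, edgeR adjusted p = 3.99e-07), and its LPS effect differed between the lines by -4.63 ± 0.43 (0.000519). Mx2, its close relative, was at 10.9 CPM in KO LPS cells, against 56.0 CPM in WT LPS cells (-2.36 ± 0.35, and -2.07 without KO LPS replicate 2).

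Gbp6 and Gbp10, which share 74.3% and 89.8% of their words with other genes, were lower in KO cells under LPS (-2.60 ± 0.32 and -2.31 ± 0.31, the value of Gbp10 being -2.02 without KO LPS replicate 2). Gbp2b, which shares more words with Gbp2 than any other gene does, had -1.81 ± 0.30. Gbp8 differed from the rest: it was at 0.79 CPM in KO medium cells, against 0.36 CPM in WT medium cells (1.14 ± 0.28, edgeR adjusted p = 0.0146), and at 0.48 CPM in KO LPS cells, against 0.98 CPM in WT LPS cells (-1.04 ± 0.27, 0.0174). Both Gbp8 calls were lost when single libraries were left out: KO medium replicate 1 or 3 or WT medium replicate 3 in medium (0.0635, 0.0660 and 0.0623), and KO LPS replicate 2 or WT LPS replicate 2 under LPS (0.0708 and 0.0538). The Gbp8 call in medium was also lost with the pseudogene covariate (edgeR adjusted p = 0.114) and with the fit restricted to the groups compared (0.0822). Gbp4, Tgtp1 and Tgtp2 had negative values under LPS that did not pass the test (-0.59, -0.95 and -1.01, edgeR adjusted p = 0.227, 0.0737 and 0.0560). Irgq and Irgc1, IRG-related genes not known for interferon induction, were at 20.3 and 0.31 CPM in KO LPS cells, against 23.9 and 0.25 CPM in WT LPS cells, and neither was called (-0.24 ± 0.16 and 0.28 ± 0.33).

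Of 24 tested genes of interferon signalling, 9 were lower and 1 was higher in KO than in WT cells under LPS, with a median of -0.32. The shares over all genes tested were 12.7% lower and 7.87% higher. The count of 9 was 6 without KO LPS replicate 2 or WT LPS replicate 1. The members that fell included the factors that read interferon signals. Irf7, the regulator of late interferon genes, was at 29.97, 14.98 and 28.1 CPM in KO LPS libraries, against 163, 139 and 134 CPM in WT LPS libraries (-2.58 ± 0.25, edgeR adjusted p = 3.52e-05). Stat2 was at 31.1 CPM in KO LPS cells, against 131 CPM in WT LPS cells (-2.07 ± 0.16, 4.74e-06). Irf9, an interferon regulatory factor, was at 52.4 CPM in KO LPS cells, against 85.5 CPM in WT LPS cells (-0.71 ± 0.17, 0.0107). Without KO LPS replicate 2 the values were -2.33 for Irf7 (edgeR adjusted p = 2.1e-05) and -1.87 for Stat2 (7.25e-07). In medium 4 of the 24 were lower and 0 higher (6 lower without WT medium replicate 2), where 12.3% of all genes were lower and 6.88% higher. Among the 4 were Irf7 (-2.05 ± 0.26) and Irf9 (-1.11 ± 0.17). Tyk2, a kinase of interferon receptors, was at 12.3 CPM in KO medium cells, against 25.5 CPM in WT medium cells (-1.05 ± 0.20, edgeR adjusted p = 0.00365).

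Irf1, the factor known to drive many GBP promoters, was at 151, 49.8 and 141 CPM in KO LPS libraries, against 155, 131 and 152 CPM in WT LPS libraries. The KO and WT libraries overlapped and the difference was not called (-0.36 ± 0.32, edgeR adjusted p = 0.536; -0.00125 and 0.998 without KO LPS replicate 2), while LPS raised Irf1 in KO cells (3.33 ± 0.35) and in WT cells (3.88 ± 0.36). Ptpn6, the most abundant gene of the list and a phosphatase that restrains cytokine receptors, was at 188 CPM in KO LPS cells, against 172 CPM in WT LPS cells (0.13, not called). Ifnb1 had 50, 22 and 42 counts in KO LPS libraries, against 224, 78 and 127 in WT LPS libraries (-1.67 ± 0.46, edgeR adjusted p = 0.0239), and the call was lost without KO LPS replicate 2 or 3 or WT LPS replicate 1 (0.0813, 0.0549 and 0.1102). Ifng, the interferon gamma gene, had at most 4 counts in any library and was not tested. The LPS effect was smaller in KO cells for Usp18, which removes ISG15 from proteins and damps the interferon receptor (-1.94 ± 0.32, edgeR adjusted p = 0.0141, 0.0775 with the pseudogene covariate) and for Stat2 (-1.21 ± 0.22, 0.0227). The list held 4 such genes among 24 tested, where 0.908% of all genes had a called negative interaction. The count of 4 was 2 without any 1 WT LPS library, KO medium replicate 1 or 3 or WT medium replicate 1, and the Stat2 call was lost in each of those 6 cases.

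**Figure D5:**
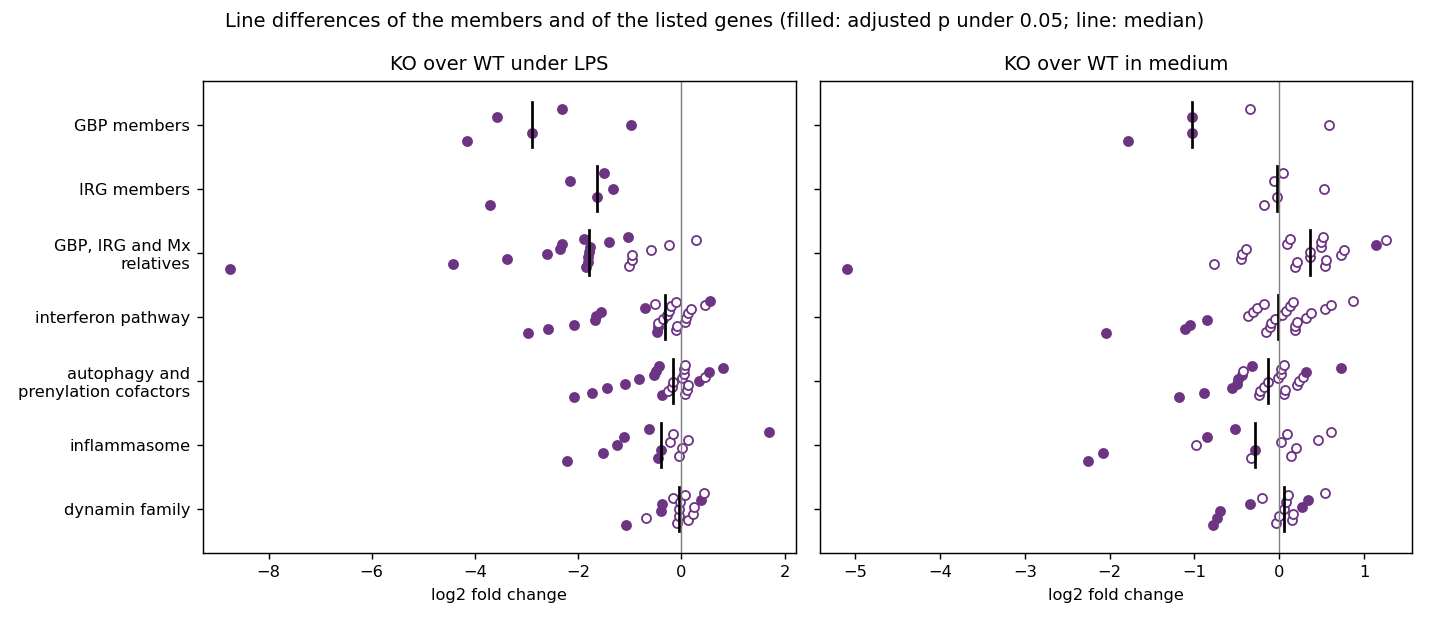
Log2 fold changes of KO over WT cells under LPS (left) and in medium (right) for the GBP and IRG genes and for 5 lists of related genes, with 1 circle per gene, filled where the test was passed, and a bar at the list's median. Under LPS all circles of the GBP and IRG genes lie below 0, with medians of -2.89 and -1.64, and the interferon pathway list has its median at -0.32.

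RNA of proteins that GBPs and IRGs work with was taken as a list of 23 genes of autophagy, ubiquitin marking and prenylation, plus the kinase Pim1. Under LPS 9 were lower and 3 higher in KO than in WT cells (median -0.15), and in medium 7 were lower and 2 higher. The alternatives gave 7 to 10 lower and 2 to 4 higher under LPS. In medium they gave 4 to 8 lower and 0 to 3 higher. Over all genes 12.7% were lower and 7.87% higher under LPS, and 12.3% lower and 6.88% higher in medium. Rnf213, a giant E3 ligase that marks bacteria with ubiquitin, was at 525, 331 and 387 CPM in KO LPS libraries, against 1464, 1406 and 1254 CPM in WT LPS libraries (-1.73 ± 0.18, edgeR adjusted p = 3.52e-05; -1.59 without KO LPS replicate 2), and its LPS effect was smaller in KO cells (-1.96 ± 0.25, 0.00344). Trim21, an intracellular antibody receptor and E3 ligase, was at 6.77 CPM in KO LPS cells, against 28.5 CPM in WT LPS cells (-2.08 ± 0.29, and -1.83 without KO LPS replicate 2). Map1lc3a, an LC3 protein of autophagy membranes, was at 2.96 CPM in KO LPS cells, against 8.01 CPM in WT LPS cells (-1.44 ± 0.27), and it was lower in medium too (-1.18 ± 0.27). Pim1, a serine/threonine kinase, was at 655 CPM in KO LPS cells, against 449 CPM in WT LPS cells (0.54 ± 0.17, edgeR adjusted p = 0.0393), and that call was lost in 10 of the alternatives, with adjusted p of 0.0506 to 0.169. Traf6, an E3 ligase of Toll-like receptor signalling, was lower in KO cells under LPS (-1.10 ± 0.10) and in medium (-0.88 ± 0.10). Sqstm1, the ubiquitin-binding autophagy receptor and the most abundant gene of the list, was at 2063 CPM in KO LPS cells, against 1962 CPM in WT LPS cells (0.07, not called), and Gabarapl1, which conjugates to autophagy membranes, was higher in KO cells under LPS (0.81 ± 0.16) and in medium (0.73 ± 0.16, a call lost with the pseudogene covariate at edgeR adjusted p = 0.0529).

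Of 13 inflammasome genes, 7 were lower and 1 was higher in KO than in WT cells under LPS (median -0.40), and 5 were lower and 0 higher in medium. All genes tested had shares of 12.7% lower and 7.87% higher under LPS, and 12.3% lower and 6.88% higher in medium. The count of 5 in medium was 3 without KO medium replicate 1 or 2. Nlrc4, the sensor adaptor for bacterial flagellin, was at 2.47 CPM in KO LPS cells, against 11.6 CPM in WT LPS cells (-2.22 ± 0.13, edgeR adjusted p = 5.31e-07), and it was lower in medium too (-2.08 ± 0.13). Il1b, the interleukin 1 beta gene, was at 167, 111.5 and 144 CPM in KO LPS libraries, against 396, 355 and 245 CPM in WT LPS libraries (-1.24 ± 0.20, edgeR adjusted p = 0.00117), and it was lower in medium (-2.26 ± 0.29). Ninj1, which ruptures the plasma membrane in lytic cell death, was lower in KO cells under LPS (-1.11 ± 0.16) and in medium (-0.86 ± 0.15). Casp4, the sensor of cytosolic LPS in mice known as caspase-11, was at 29.6 CPM in KO LPS cells, against 40.5 CPM in WT LPS cells (-0.45 ± 0.12, edgeR adjusted p = 0.0163). That call was lost without KO LPS replicate 3, WT LPS replicate 1 or WT LPS replicate 2 (0.0744, 0.0589 and 0.0606). Nlrp3, the sensor whose assembly Gbp5 promotes, was at 375 CPM in KO LPS cells, against 369.5 CPM in WT LPS cells (0.02, 95% interval -0.28 to 0.32). Casp8, an initiator caspase, was at 40.1 CPM in KO LPS cells, against 61.8 CPM in WT LPS cells (-0.62 ± 0.08), and its LPS effect was smaller in KO cells (-0.81 ± 0.11, edgeR adjusted p = 0.00481).

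Among 15 genes of the wider dynamin family and membrane GTPases, 3 were lower and 1 higher in KO than in WT cells under LPS (median -0.04). The shares over all genes tested were 12.7% lower and 7.87% higher. Ehd4, an endosomal GTPase, was at 68.1 CPM in KO LPS cells, against 143 CPM in WT LPS cells (-1.07 ± 0.10). The endosomal GTPase Rab5a (-0.39 ± 0.08) and the membrane-cutting Dnm2 (-0.38 ± 0.07) were the other two lower genes, and Atl2, which fuses endoplasmic reticulum tubules, was the higher one (0.38 ± 0.07). Ehd1, an endosomal recycling GTPase and the most abundant gene of the list, was at 1057, 688 and 952 CPM in KO LPS libraries, against 832, 708 and 771 CPM in WT LPS libraries (0.22 ± 0.13, edgeR adjusted p = 0.317; 0.38 and 0.0153 without KO LPS replicate 2). In medium it was at 60.5 CPM in KO cells, against 100.8 CPM in WT cells (-0.74 ± 0.14, 0.00291). Its LPS effect was 3.89 ± 0.15 in KO cells and 2.94 ± 0.15 in WT cells, and the interaction was called (0.96 ± 0.19, edgeR adjusted p = 0.0324). The interaction call was lost without KO LPS replicate 1 or 3, any 1 WT LPS library, KO medium replicate 3 or WT medium replicate 1, and with the pseudogene covariate (edgeR adjusted p = 0.0600 to 0.0938). Dnm1, a dynamin best known in neurons, was lower in KO cells in medium (-0.78 ± 0.24, edgeR adjusted p = 0.0412), a call lost in 9 of the alternatives (0.0574 to 0.160). Rab7, a late endosome GTPase, was not called between the lines under LPS (-0.04).

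The genes whose pattern over the 12 libraries was most like the mean of the 10 GTPase genes were Oasl2, Ifit2, Ifi211, Xaf1 and Oasl1. Likeness was the root-mean-square difference of log2 CPM (prior count 2), each gene centred on its own mean. The genes considered were 9832 outside the 10 whose mean log2 CPM reached 2 and whose symbol was a regular one. Genes named by a Gm number or with Rik in the name were left out, among them relatives such as 9930111J21Rik1. The difference was 0.451 for Oasl2 and 0.49 to 0.518 for the other 4. The 10 genes themselves lay 0.572 (Gbp3) to 1.74 (Gbp2) from their own mean, so Gbp2 was the least typical and Gbp7 came next at 1.1. Oasl2 was at 80.4 ± 36.2 CPM in KO LPS cells, against 226 ± 26.9 CPM in WT LPS cells (SD, n = 3 each), and at 3.94 ± 0.23 CPM in KO medium cells, against 4.08 ± 1.01 CPM in WT medium cells. Ifit2 was at 177 ± 93.5 CPM in KO LPS cells, against 851 ± 94.1 CPM in WT LPS cells. Their KO over WT values under LPS were -1.49 for Oasl2 and -2.27 for Ifit2, and -1.17 and -1.89 without KO LPS replicate 2. Xaf1 and Oasl1 were also lower in KO cells in medium (-1.41 ± 0.27 and -0.92 ± 0.24), as Gbp2, Gbp3 and Gbp7 were, while Oasl2, Ifit2 and Ifi211 were not called there. The Oasl1 call in medium was lost without KO medium replicate 3, with no filter on low counts and with the pseudogene covariate (edgeR adjusted p = 0.0603, 0.0683 and 0.0900).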

How the data were processed

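Total RNA of 12 SIM-A9 libraries was sequenced after ribosomal RNA removal with a stranded kit, per the labels' protocols. The authors deposited 1 table of raw read counts per gene for 55416 Ensembl identifiers, of which 52083 carried a symbol. Per the submitters' processing notes, FastQC 0.11.9, Trimmomatic 0.39, STAR 2.7.9a, featureCounts, DESeq2 1.32.0 and the build GRCm39 were used. How the counting handled strand and reads with several matches, and with which annotation, is not given in the sources used here, so copies and overlapping genes are named beside their values.

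Genes with enough counts in a group (edgeR's filterByExpr, minimum count 10) were tested, which left 26420. Counts were scaled by TMM and fitted with edgeR 4.0.16 (R 4.3.3, robust quasi-likelihood) with 1 mean for each of the 4 groups over all 12 libraries, which share 1 estimate of spread. There were 5 comparisons: KO over WT under LPS and in medium, LPS over medium in KO and in WT, and the difference between the LPS effects. P-values were adjusted by the Benjamini-Hochberg method over all genes tested. Exon lengths, overlaps and shared 31-base words came from GENCODE M21 (GRCm38), and promoters from RefSeq (GRCm38.p6). Exon length was that of all annotated exons of a gene, merged, and not of a single transcript. The 10 genes and all lists were chosen with earlier results of these data known. The rule for genes named from each list other than the GBP and IRG relatives took the 3 called genes with the largest fold change per comparison at a mean log2 CPM of at least 1, and the most abundant gene. Interferon genes, Mok, markers and the 5 genes most alike were also named. The model fits were tested on simulated counts. The alternatives covered scaling, filters, DESeq2 1.42.0, covariates, restricted fits and each library left out. One gene of the interferon signalling list is counted with its list but not reported here.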

Additional observations from a re-analysis of the deposited data

Results flagged for a closer look

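For 5 of the 10 genes the LPS effect differed between the lines by a test of the difference itself, the interaction term of edgeR's quasi-likelihood fit with 3 libraries a group. The LPS effect in KO cells minus that in WT cells, on the log2 scale, was -4.23 for Iigp1, -3.22 for Gbp5, -2.38 for Gbp7, -1.86 for Gbp3 and -1.28 for Gbp2. Gbp5, Gbp7 and Gbp3 were called under each of the 22 alternatives. Iigp1 rests on 27 counts in all in KO LPS libraries, and its call was lost in 9 alternatives, while that of Gbp2 was lost in 10. Irgm1, Igtp and Ifi47, which like Irgm2 had their lowest KO LPS value in replicate 2, were called as well without that library, without WT medium replicate 2 and with DESeq2 on all libraries. The part of either library in the result was not tested.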

How the results depend on the processing

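Under LPS the count of 10 genes lower in KO than in WT cells was 9 to 10 when single libraries were left out, and Gbp9 was the gene lost. In medium the count of 3 became 1 with the fit restricted to the 2 groups compared and ranged from 2 to 4 over left-out libraries. The count of 5 interactions became 9 with DESeq2 and 3 with the share of processed pseudogene counts added as a covariate, and ranged from 3 to 8 over left-out libraries. Same-numbered libraries of different groups deviated from their group means with correlations of -0.366 to 0.391. They were over 0.1 for replicate 1 in all 6 pairs of groups (0.108 to 0.391) but not for every number in any 2 groups compared. Between WT LPS and KO medium, groups not compared with each other, all 3 numbers were over 0.1 (0.108, 0.162 and 0.231). Libraries with different numbers had mean correlations of -0.0962 to 0.00569 over the pairs of groups. Pairing was thus not established. With the replicate block the count was 6, with Igtp added (-1.65, edgeR adjusted p = 0.0335), and the count of all genes with a positive interaction was 311, against 183. No other count of calls among the 10 genes changed with the replicate block. Of the values of the 10 genes under alternatives, 1088 kept direction and call, 26 lost a call, 16 gained one and 8 reversed. The reversed ones were all values in medium that had not been called: Gbp5 at 0.46, Irgm1 at -0.13 and Iigp1 at -0.655 with the pseudogene covariate, Irgm1 at -0.0388 and -0.0209 without KO medium replicate 3 and WT medium replicate 3, Igtp at 0.121 and 0.0969 without KO medium replicate 2 and WT medium replicate 1, and Ifi47 at 0.135 without WT medium replicate 2. Over left-out libraries these ranged from -0.0388 to 0.103 for Irgm1, from -0.178 to 0.121 for Igtp and from -0.342 to 0.135 for Ifi47. Among other named genes, the WT LPS effects of Traf6 (-0.0165), Atl2 (-0.121) and Rab7 (-0.00286) reversed with scaling by library size alone. The LPS effect of Gm12185 in KO cells reversed with the pseudogene covariate (0.358). With scaling by library size the median over all genes was -0.293 for the LPS effect in KO cells and -0.403 for that in WT cells, with the 10 genes at 2.64 in KO cells and 4.75 in WT cells. The cause of these changes was not tested.

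Counts over all genes moved more. Higher under LPS in KO than in WT cells were 2080 genes (1382 to 2288 over left-out libraries). In medium 1818 were higher and 3256 lower. With the pseudogene covariate these became 558 and 1784, with the restricted fit 802 were higher, and left-out libraries gave 907 to 6110 higher and 2477 to 5155 lower, the highest of both without WT medium replicate 2. For LPS in KO cells 6679 were higher and 7070 lower, against 4182 higher with library size alone, 4075 and 4192 with protein-coding genes only, and 1342 and 659 with the pseudogene covariate. For LPS in WT cells 4303 were higher and 4297 lower, against 2104 and 9985 with library size alone, 2313 lower with the pseudogene covariate and 2094 to 6337 lower over left-out libraries. Positive interactions numbered 183, against 360 with library size alone, 278 with the stricter filter, 73 with the pseudogene covariate, 442 with DESeq2 and 69 to 1606 over left-out libraries. Negative interactions numbered 240, against 385 with protein-coding genes only, 125 with the pseudogene covariate, 415 with DESeq2 and 116 to 2391 over left-out libraries. The 1606 positive and 2391 negative interactions were those without WT medium replicate 2. Depth limits Iigp1 and the GBPs in medium, which had few counts.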
